A study of Arabidopsis thaliana with 16 samples.

Results

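The endpoint of a rising temperature curve was compared with its start in leaves of Arabidopsis thaliana. Of the 16 arrays of the series, 8 entered the comparison: 4 of leaves taken when photosynthesis had fallen 30% below its optimum, and 4 of leaves taken at the growth temperature, called the baseline. They were chosen by their labels alone. All plants were of the Columbia line (Col-0) and had grown in a chamber at 22 °C, 60% humidity and a 10 h photoperiod with light of 350 µmol m-2 s-1. For the curve, the temperature was raised from 22 °C towards 42 °C by 2 °C every 10 min until the wanted state was reached. The leaf was held there for 20 to 30 min before sampling, and a whole curve took 3 to 4 h. The state was set from gas exchange measured beforehand, and the leaf temperature at 30% inhibition is not given in the labels. The leaves at 30% inhibition had therefore been warmed and had also spent longer in the measurement. Effects of heat, of the duration of the curve and of the hour at sampling cannot be told apart. Leaves of 4 plants picked at random were used for each state, and the p-values refer to the spread between such samples, pooled over all 4 states.

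When leaf cells are heated, proteins unfold, and plants respond with heat shock factors that switch on genes for chaperones. Small heat shock proteins hold unfolded proteins in solution, and HSP70 and HSP90 machines with their co-chaperones refold them. The endoplasmic reticulum has a stress response of its own, which uses membrane-bound bZIP factors. The chloroplast and the mitochondrion carry small genomes for core parts of photosynthesis, respiration and their own gene expression, and most other organelle proteins come from nuclear genes. Of the 22746 probe sets tested, 13513 could be assigned to 1 gene, which covered 13264 nuclear, 69 chloroplast-encoded and 16 mitochondrion-encoded genes. In a locus name such as AT1G53540 the digit after AT is the chromosome.

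Signals are given on the log2 scale of the deposited table, where a step of 1 is 2-fold. On these 8 arrays they ran from 3.25 to 14.68. The table holds no detection calls, so a low signal cannot be told from background, and the fold of a gene that starts or ends low is approximate and may be understated. Any 2 arrays of the same state correlated at 0.994 to 0.998, and any 2 of different states at 0.942 to 0.951. The median SD of a probe set over 4 arrays was 0.093 at baseline and 0.100 at 30% inhibition. The arrays at 30% inhibition differed from the baseline in a control: the probe set for 25S ribosomal RNA read 5.92, 5.68, 5.55 and 6.41 at baseline and 10.01, 9.76, 11.35 and 8.67 at 30% inhibition. The groups did not overlap (exact permutation test, 2-sided p = 0.0286, the smallest p that 4 against 4 allows, and 0.0762 adjusted over 8 array measures). Some fits below add this 25S signal as a covariate. As it separates the states, such a fit cannot tell its part from that of the state, and precision is lost. A call that ends in that fit is therefore not assigned to ribosomal RNA. The difference between the 3′ and 5′ probe sets of actin was 1.94 to 2.19 at baseline and 2.28 to 2.59 at 30% inhibition (exact p = 0.0286, adjusted 0.0762). For the same difference in GAPDH the means were 0.870 and 0.745 (exact p = 0.0857), and in ubiquitin 1.31 and 1.27 (exact p = 0.314).

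Across the whole temperature span 10067 of 22746 probe sets were called, that is 44.3%, at an adjusted p under 0.05 in limma. Of these, 4394 were higher (19.3%) and 5673 lower (24.9%). Falls were more numerous, yet the large changes were rises. At least 2-fold, 909 probe sets were higher (4%) and 939 lower (4.13%). At least 4-fold the counts were 298 and 112, at least 8-fold 135 and 14, and at least 16-fold 75 and 3. By at least 64-fold 30 probe sets rose and 0 fell. Read per gene, by the brightest probe set of each, 2477 of 13355 genes rose (18.5%) and 2949 fell (22.1%), 40.6% in all, and the median change over all genes was -0.00. These shares are the background for every list below. The lists were chosen with earlier results of these data known, so a count set beside these shares is a description and not a test. The 4 arrays of each state did not overlap, with 30% inhibition above the baseline, in 19% of probe sets, and with 30% inhibition below it in 24.6%. By nuclear chromosome, 17.4% to 19.4% of genes rose and 18.8% to 24% fell. Among 998 nuclear pseudogenes 3.81% rose and 2.71% fell.

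**Figure D1:**
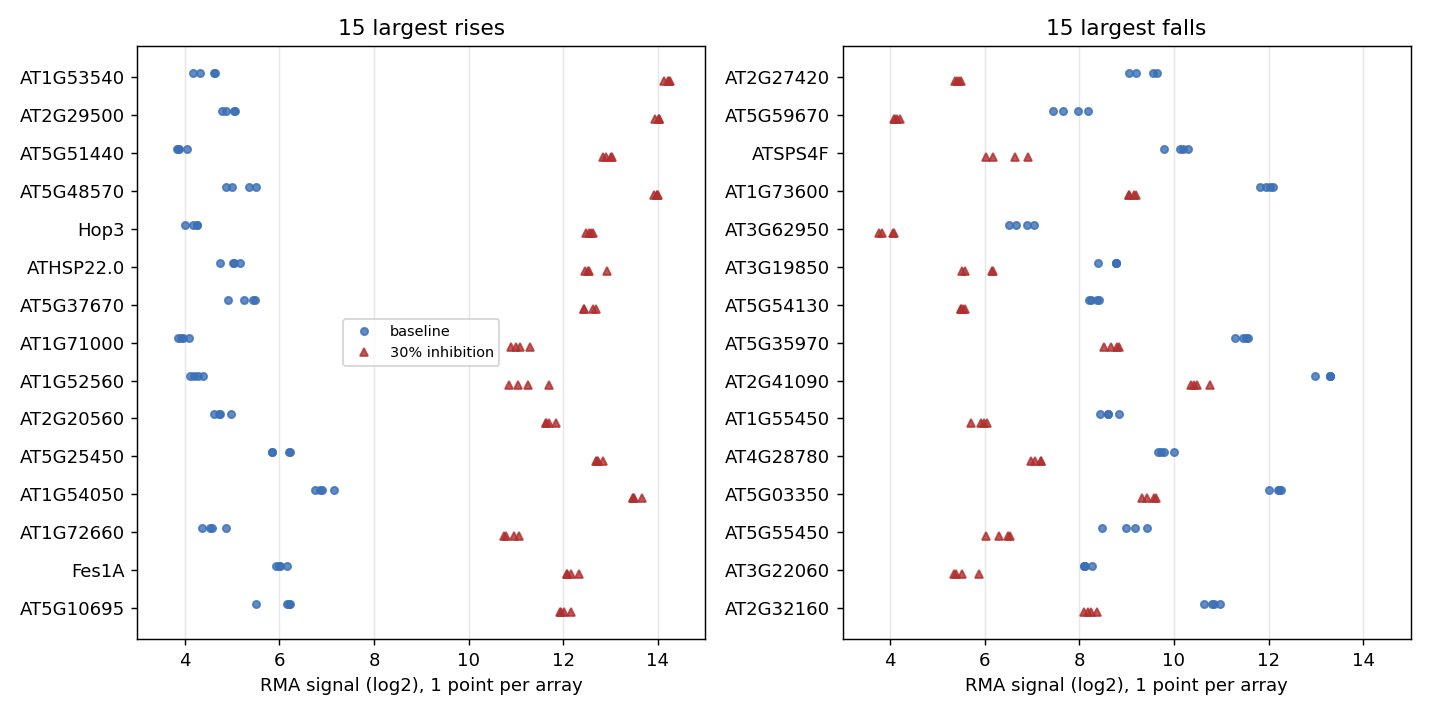
RMA signal (log2, horizontal axis) on each of the 4 baseline arrays (circles) and 4 arrays at 30% inhibition (triangles) for the 15 genes with the largest rises (left) and the 15 with the largest falls (right). In all 30 genes the groups lie apart; AT1G53540, at the top of the rises, goes from 4.18 to 4.64 at baseline to 14.12 to 14.25 at 30% inhibition.

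Among genes with an assigned probe set, small heat shock proteins held the largest rises. Of 10 measured members of the list, 7 rose and 1 fell, and the median change was 7.12. The class I small heat shock protein AT1G53540, a cytosolic protein, read 4.33, 4.18, 4.62 and 4.64 at baseline and 14.12, 14.20, 14.25 and 14.24 at 30% inhibition. It rose by 9.76 ± 0.23 (SE; 867-fold; limma adjusted p = 1.9e-15), from the dim end of the arrays to close to the brightest signal on them. AT2G29500, another cytosolic class I member, stood at 4.87, 5.04, 4.78 and 5.06 and then at 14.02, 14.02, 14.02 and 13.93. That is a rise of 9.06 ± 0.11 (533-fold; adjusted p = 1.1e-18). The mitochondrial AT5G51440 gave 3.85, 3.84, 3.88 and 4.04 against 13.01, 12.84, 13.03 and 12.91, a rise of 9.05 ± 0.16 (adjusted p = 7.7e-17). In none of these genes did any array of one state come near an array of the other.

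Members from several cell compartments rose. ATHSP22.0 (AT4G10250), whose product resides in the endoplasmic reticulum, rose by 7.62 ± 0.11 from a baseline mean of 4.99 ± 0.18 (SD, n = 4) to 12.61 ± 0.21. The peroxisomal AT5G37670 rose by 7.27 ± 0.13, and AT1G52560 and AT1G54050 by 6.97 ± 0.16 and 6.61 ± 0.13 (all 4 with limma adjusted p of 1.4e-15 or less). The exception was AT5G54660. On the baseline arrays it read 7.60, 7.54, 7.38 and 7.37, and at 30% inhibition 6.84, 6.47, 6.74 and 6.44, so it fell by 0.84 ± 0.16 (adjusted p = 0.0003). The other 2 measured members did not pass the test.

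Co-chaperones rose throughout: all 11 measured members rose, by 0.20 to 8.79, with a median of 3.70. AT5G48570 (ROF2), an FKBP-type prolyl isomerase that binds HSP90, read 5.51, 5.01, 4.87 and 5.35 at baseline and 13.93, 13.98, 13.99 and 14.00 at 30% inhibition, a rise of 8.79 ± 0.16 (442-fold; limma adjusted p = 1.4e-16). Hop3 (AT4G12400), which links HSP70 to HSP90, gave 4.26, 4.27, 4.01 and 4.18 against 12.54, 12.58, 12.64 and 12.48 (8.38 ± 0.19, 333-fold). The DnaJ-type AT2G20560, which feeds clients to HSP70, rose by 6.94 ± 0.12, and Fes1A (AT3G09350), an exchange factor that protects HSP70-bound proteins, by 6.14 ± 0.14. A further gene of DnaJ type, AT1G71000, stands outside the list and rose by 7.11 ± 0.16. None of these genes had overlapping groups.

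Few of the chaperones that these partners serve could be measured. Only 3 of the 25 HSP70, HSP90, HSP100 and Clp genes of the list had a probe set assigned to them, and all 3 rose. AT3G09440, a cytosolic HSP70, read 11.08, 10.90, 11.04 and 10.78 at baseline and 13.34, 13.45, 13.38 and 13.25 at 30% inhibition (2.40 ± 0.09; limma adjusted p = 1.3e-12). Hsp70-2 (AT5G02490) rose by 2.61 ± 0.14 and AT1G11660 by 1.28 ± 0.09. Both measured chaperonins, the barrel-shaped folding machines of the chloroplast, rose: Cpn60beta2 (AT3G13470) by 2.35 ± 0.06 from 11.25 ± 0.06 (SD), and Cpn60beta3 (AT5G56500) by 2.57 ± 0.15 from 6.75 ± 0.22. None of the heat shock factors on the list had an assigned probe set, so their own transcripts were not analysed here.

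Of 29 genes on the list for folding in the endoplasmic reticulum only 7 were measured. All 7 rose, by 1.00 to 2.75, median 1.91. They include bZIP transcription factors, namely BZIP28, BZIP60 and BZIP17 (AT2G40950), the last with the smallest rise. DER1 (AT4G29330), a derlin that helps to draw misfolded proteins out of the reticulum, read 8.07, 8.33, 8.07 and 8.01 and then 10.96, 10.87, 10.86 and 10.80 (2.75 ± 0.13; limma adjusted p = 2.9e-11). The luminal co-chaperone ATERDJ3B (AT3G62600) rose by 2.56 ± 0.08, and AT5G07340, listed as a calnexin, by 1.92 ± 0.08. The bZIP factors of the list were also higher. BZIP28 (AT3G10800), a bZIP factor released from the membrane under stress, rose by 1.75 ± 0.06, and BZIP60 (AT1G42990), whose RNA is spliced under stress, by 1.07 ± 0.09. In the wider family named BZIP, 7 of 14 genes rose, 1 fell and 6 were not called, and bZIP44 (AT1G75390) rose by 1.74 ± 0.13 from 5.99 ± 0.12 (SD). The only member that fell was bZIP19 (AT4G35040), a zinc sensor, with a change of -0.18 ± 0.06, and its call ended without the array of replicate 3 at 30% inhibition (-0.16, adjusted p = 0.06).

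Autophagy genes, whose products wrap cell material for breakdown in the vacuole, moved both ways. Of 14 measured members of the list, 8 rose, 4 fell and 2 were not called. The genes that rose were 7 for the ATG8 coat protein and ATG3, which conjugates it to lipid. ATG8D (AT2G05630) read 6.54, 6.37, 5.77 and 6.32 at baseline and 8.62, 8.58, 8.53 and 8.83 at 30% inhibition (2.39 ± 0.14; limma adjusted p = 3e-10). APG8A (AT4G21980) rose by 1.45 ± 0.11 and ATG8H (AT3G06420) by 1.05 ± 0.14, and by symbol stem 6 of 8 genes named ATG rose and 0 fell. The 4 that fell included AT3G61960 and AT2G37840, on the list as ATG1-type kinases (-1.03 ± 0.09 and -0.73 ± 0.14), and AT3G59950, on the list as an ATG4-type protease (-0.39 ± 0.11), whose call ended with the 25S signal as a covariate (-0.11, limma adjusted p = 0.46).

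Among genes for sorting to the vacuole named VPS, 5 of 10 rose and 2 fell. VPS60.1 (AT3G10640), a subunit of the machinery that buds vesicles into endosomes, rose by 1.84 ± 0.11 from 6.38 ± 0.24 (SD), VPS20.1 (AT5G63880) rose by 1.19 ± 0.10, and VPS9B (AT5G09320) fell by 0.63 ± 0.07. In the family named SEC 5 of 9 genes fell, 1 rose and 3 were not called. Those that fell include subunits of the exocyst, which tethers vesicles to the plasma membrane: SEC10 (AT5G12370; -0.50 ± 0.07), SEC5A (AT1G76850; -0.44 ± 0.06) and SEC6 (AT1G71820; -0.38 ± 0.05), all without overlap between the groups. The 1 member that rose, SEC1B (AT4G12120), had a change of 0.34 ± 0.13 with overlapping groups. Its call was lost in 5 of the 8 fits that left out 1 of the compared arrays, with the lowest value without the array of baseline replicate 3 (0.21, adjusted p = 0.17).

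Genes encoded in the mitochondrion rose. Of 16 measured, 14 rose and 0 fell, with a median of 2.35 against -0.00 over all genes. Their mean signal was 5.93, 5.79, 5.84 and 5.81 on the baseline arrays and 7.86, 7.72, 7.84 and 7.88 at 30% inhibition, so each state kept within a narrow range and the states did not overlap. Complex I, the entry point of electrons into the respiratory chain, had the largest changes. The subunit gene nad6 read 4.85, 4.56, 4.71 and 4.74 at baseline and 9.11, 8.99, 8.91 and 9.45 at 30% inhibition (4.40 ± 0.10, 21.1-fold; limma adjusted p = 1.3e-15). Its probe set, like those of ccmFC, matR, mttB and 1 of nad5, is of a type that can match several sequences. For nad4L the values were 4.73, 4.47, 4.51 and 4.40 against 8.85, 8.49, 9.02 and 8.91 (4.29 ± 0.11). The gene nad9 rose by 2.92 ± 0.12 from 5.55 ± 0.19 (SD). These signals started near the dim end of the scale and ended in its middle range.

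Not all complex I genes moved so far. The brightest at baseline, nad4, rose by 0.49 ± 0.09 from 9.09 ± 0.16 (SD), nad7 by 0.26 ± 0.07, and nad2 did not pass (-0.06 ± 0.10). In nad5 both probe sets rose, by 4.07 ± 0.13 in the probe set that can match several sequences and by 3.19 ± 0.08 in the other. Within nad1, whose exons lie scattered over the mitochondrial genome and are joined by trans-splicing, 7 probe sets disagreed. Of these, 5 rose by 1.66 to 3.71, and the other 2 read 4.58 to 4.80 and 4.98 to 5.30 at baseline and had changes of -0.04 ± 0.07 and -0.08 ± 0.09. The call of nad7 was lost with the 25S signal as a covariate (0.20, adjusted p = 0.12). That covariate left 13 of the mitochondrial genes called.

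The terminal oxidase of the chain, complex IV, followed complex I. The subunit gene cox1 read 6.63, 6.36, 6.35 and 6.48 and then 9.32, 8.95, 9.29 and 9.54 (2.82 ± 0.12; limma adjusted p = 6.6e-12). Its partner cox2 rose by 2.72 ± 0.07 from 5.87 ± 0.15 (SD). Of 4 genes for the maturation of cytochrome c, ccmFC rose by 2.54 ± 0.13, ccmFN2 by 1.40 ± 0.10 and ccmB by 0.45 ± 0.09, while ccmFN1 was not called (0.24 ± 0.12). The maturase gene matR, which serves intron splicing, rose by 2.34 ± 0.11, and mttB, for a protein translocase subunit, by 0.49 ± 0.09. The median change of the 16 genes was -0.09 at the optimum, 1.94 at 20% inhibition and 2.35 at 30% inhibition, all against the same baseline arrays.

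**Figure D2:**
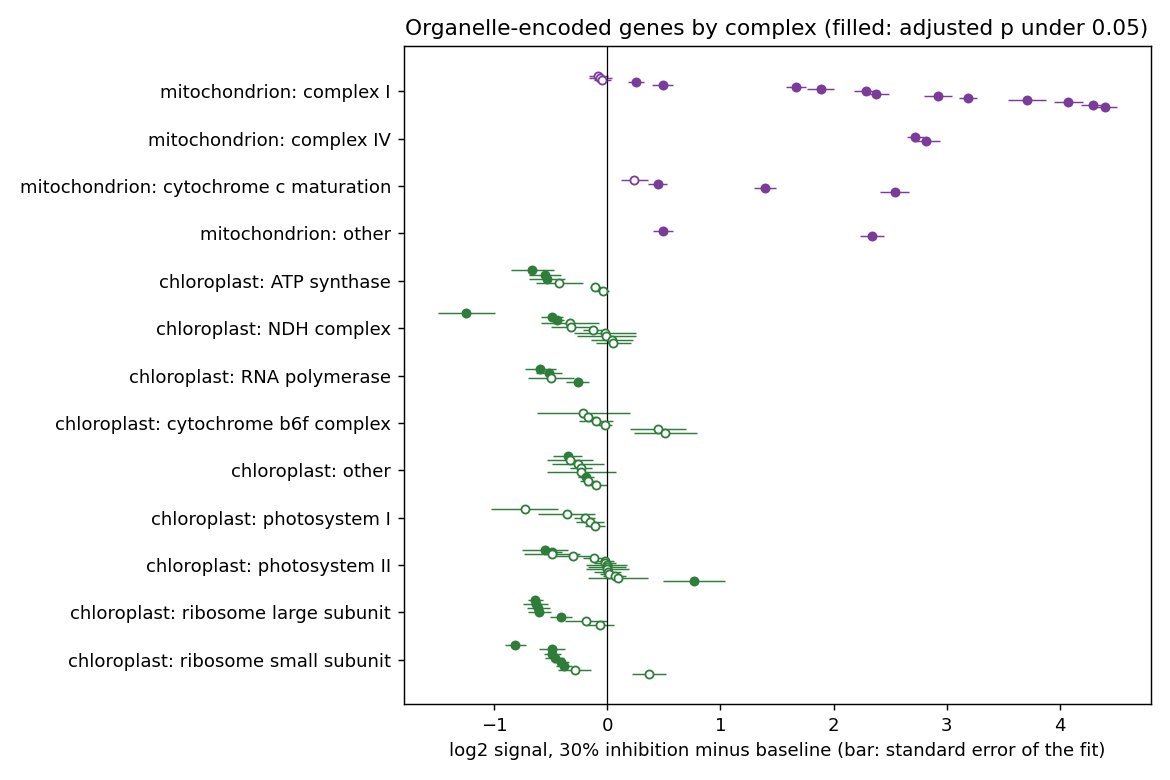
Change in log2 signal from baseline to 30% inhibition (horizontal axis, with the standard error of the fit) for every probe set of a gene encoded in the mitochondrion (purple) or chloroplast (green), by complex; filled points passed the test. Mitochondrial points reach 4.40, whereas chloroplast points lie between -1.24 and 0.77.

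The 25S ribosomal RNA signal was higher at 30% inhibition, as were the mitochondrial genes. The part of the actin 3′ to 5′ difference in the mitochondrial result was not tested. For ribosomal RNA only the 25S covariate given above was fitted. That signal did not overlap between the states, so the fit cannot tell its part from that of the state. In bulk leaf RNA, more transcript in each cell and more cells or organelles that carry it cannot be told apart. The arrays read labelled copies of the RNA, and whether these signals follow the amount of mitochondrial transcript was not tested. Some nuclear probe sets may read mitochondrial RNA: a stretch of chromosome 2 holds a copy of the mitochondrial genome in the Columbia line. Among 34 measured loci from AT2G07660 to AT2G07789, 22 rose and 0 fell, with a median of 0.56, and 19 of the 34 were measured by probe sets that match several sequences by design. Without such probe sets, 10 mitochondrial genes remained called.

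**Figure D3:**
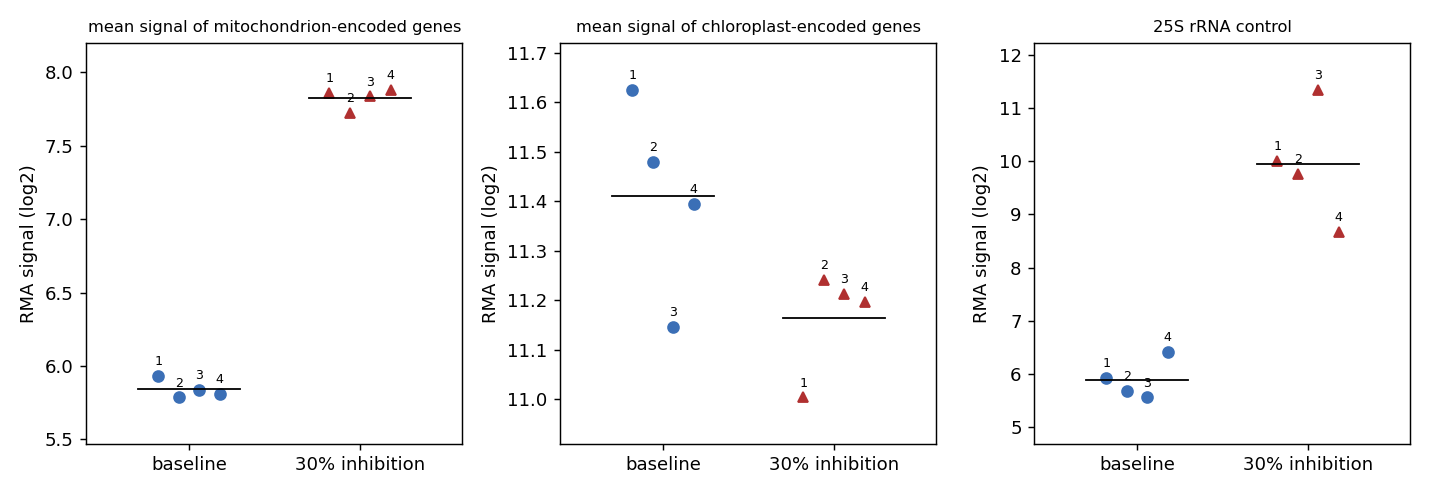
Mean signal (log2) of the 16 mitochondrion-encoded genes (left), of the 69 chloroplast-encoded genes (middle) and of the 25S ribosomal RNA control (right) on each array, numbered by replicate, with lines at group means. The mitochondrial means lie at 5.79 to 5.93 and 7.72 to 7.88; the chloroplast means of the states overlap, and the 25S control spreads from 8.67 to 11.35 at 30% inhibition.

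Genes encoded in the chloroplast fell or were not called, with 1 exception. Of 69 measured, 24 fell (34.8%, against 22.1% of all genes), 1 rose and 44 were not called, and the median change was -0.24. Against the same baseline arrays the median was -0.09 at the optimum and -0.41 at 20% inhibition, so the endpoint median was not the lowest. Their mean signal was 11.626, 11.480, 11.145 and 11.394 at baseline and 11.003, 11.240, 11.212 and 11.196 at 30% inhibition. The difference of -0.248 had p = 0.114 in the exact permutation test, and 0.183 adjusted over 8 array measures. The states overlapped through the array of baseline replicate 3, which was lower than the other baseline arrays, and the array of replicate 1 at 30% inhibition was the lowest of all 8. Without each of the compared arrays in turn, 20 to 27 of the genes fell.

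The falls included many genes for the chloroplast's own gene expression. Of 7 measured genes for the large ribosomal subunit 5 fell, of 8 for the small subunit 6, and of 4 for the plastid RNA polymerase 3. The ribosomal gene rps16 read 8.74, 8.66, 8.40 and 8.45 at baseline and 7.75, 7.63, 7.73 and 7.89 at 30% inhibition (-0.81 ± 0.10; limma adjusted p = 1.8e-06). In the large subunit rpl22 gave 12.44, 12.59, 12.36 and 12.39 against 11.95, 11.83, 11.69 and 11.78 (-0.63 ± 0.07; adjusted p = 5.3e-07), and rpl36, rpl16 and rpl14 fell by 0.63, 0.61 and 0.60. These groups did not overlap. The polymerase subunit genes rpoC1 and rpoC2 fell by 0.59 ± 0.14 and 0.51 ± 0.12. The call of rpoA was weak (-0.26 ± 0.10) and ended without each of 5 single arrays, for example that of baseline replicate 2 (-0.18, adjusted p = 0.18). Its partner rpoB did not pass (-0.50 ± 0.20), with 5.24 on the array of replicate 1 and 5.71 to 6.10 on the others at 30% inhibition.

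Falls were also called in some of the photosynthetic complexes encoded in the chloroplast. Of 15 photosystem II genes 2 fell and 1 rose, of 5 photosystem I genes and 6 cytochrome b6f genes none was called, of 6 ATP synthase genes 3 fell, and of 10 genes for the NDH complex, which returns electrons to the plastoquinone pool, 3 fell. The largest fall was in ndhH, with 10.04, 10.13, 9.75 and 9.87 at baseline and 8.02, 8.95, 9.02 and 8.82 at 30% inhibition (-1.24 ± 0.26; limma adjusted p = 0.00062). All arrays at 30% inhibition were below the baseline, and that of replicate 1 was the lowest. The NDH genes ndhI and ndhA fell by 0.44 ± 0.06 and 0.49 ± 0.10. In the ATP synthase, atpH, atpA and atpF fell by 0.66 ± 0.19, 0.55 ± 0.14 and 0.53 ± 0.16. The gene psaA for a core protein of photosystem I missed the threshold (-0.73 ± 0.29; adjusted p = 0.055): at 30% inhibition it read 10.90 and 11.86 on the arrays of replicates 1 and 4, but 12.49 and 12.71 on the other 2.

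A single chloroplast gene rose. psbA, which encodes the D1 protein of photosystem II that light damages and the leaf replaces, read 13.16, 12.60, 11.37 and 12.63 at baseline and 13.33, 13.15, 13.10 and 13.26 at 30% inhibition (0.77 ± 0.28; limma adjusted p = 0.031). The groups overlapped, and the value rested on the low array of baseline replicate 3: without it the change was 0.41 and the adjusted p 0.094. The call was also lost without the arrays of replicates 1, 2 or 4 at 30% inhibition (0.73, 0.79 and 0.75, with adjusted p of 0.069, 0.051 and 0.061). Other photosystem II genes that did pass were psbZ (-0.49 ± 0.09) and psbC (-0.55 ± 0.20). The psbC call was lost without any of several single arrays, for example replicate 1 at 30% inhibition (-0.34, limma adjusted p = 0.15). Outside these complexes, clpP for a protease subunit and the maturase gene matK were called lower with overlapping groups (-0.35 ± 0.13 and -0.19 ± 0.07). Both calls were lost without any of several single arrays, for example replicate 1 at 30% inhibition (-0.20 and -0.15, limma adjusted p = 0.14 and 0.13). The gene rbcL for the large subunit of Rubisco, the enzyme that fixes carbon dioxide, was not called (-0.23 ± 0.30).

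The few measured nuclear genes for carbon fixation and photorespiration fell. Only 4 of the 21 genes of the Calvin-Benson cycle list were measured, and all 4 fell. SBPASE (AT3G55800), the bisphosphatase that regenerates the acceptor of carbon dioxide, read 13.60, 13.52, 13.54 and 13.54 at baseline and 12.69, 12.61, 12.40 and 12.73 at 30% inhibition (-0.95 ± 0.08; limma adjusted p = 4.4e-08). PRK (AT1G32060), the kinase that makes that acceptor, fell by 0.79 ± 0.08, and AT1G56190, a phosphoglycerate kinase, by 0.41 ± 0.09. RCA (AT2G39730), the heat-sensitive activase of Rubisco, was among the brightest genes and changed least: 14.64, 14.62, 14.60 and 14.60 became 14.50, 14.46, 14.42 and 14.47 (-0.16 ± 0.04; adjusted p = 0.0086). The arrays did not overlap, although a signal so near the top of the scale leaves little room to measure a change. The call ended with the 25S signal as a covariate (limma adjusted p = 0.067), while the change itself was nearly the same (-0.15).

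Photorespiration, the salvage path for the product of Rubisco's oxygenase reaction, had 4 measured genes of the 20 on its list, and all 4 fell. LrgB (AT1G32080), the glycolate and glycerate carrier of the chloroplast, read 11.96, 12.02, 11.86 and 12.06 and then 10.95, 10.84, 10.73 and 11.01 (-1.10 ± 0.09; limma adjusted p = 2.2e-08). AT1G11860, the T protein of glycine decarboxylase, fell by 0.77 ± 0.09, and HPR (AT1G68010), the peroxisomal hydroxypyruvate reductase, by 0.68 ± 0.07. AT1G80380, the glycerate kinase that closes the path, fell by 0.61 ± 0.07. The groups did not overlap in any of these genes.

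The few measured nuclear genes for light harvesting and electron transport had small changes, apart from 1. Of 24 antenna genes on the list only 3 were measured, all named LHCB4. LHCB4.1 (AT5G01530) and LHCB4.2 (AT3G08940), minor antenna proteins of photosystem II, were not called (-0.05 ± 0.06 and -0.01 ± 0.05). The third gene of that set, LHCB4.3 (AT2G40100), fell by 1.17 ± 0.13, from 10.77, 10.89, 10.86 and 10.87 to 9.86, 9.59, 9.22 and 10.05 (adjusted p = 1.3e-06 in limma). Of 30 photosystem and electron transport genes on the list only 5 were measured. Of those measured 3 fell: ATPC1 (AT4G04640), the gamma subunit of the ATP synthase, by 0.28 ± 0.05, PSBY (AT1G67740) by 0.17 ± 0.06 and PSBW (AT2G30570) by 0.14 ± 0.05. The calls of PSBY and PSBW did not survive leaving out single arrays, such as replicate 2 at 30% inhibition for PSBY (-0.15, adjusted p = 0.069) and baseline replicate 1 for PSBW (-0.12, adjusted p = 0.13). PSAE-1 (AT4G28750) and PSAN (AT5G64040) of photosystem I gave -0.04 ± 0.05 and -0.08 ± 0.05.

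Of 5 measured genes of chlorophyll metabolism 2 rose, 1 fell and 2 were not called. PORB (AT4G27440), the light-dependent oxidoreductase that makes chlorophyllide, rose by 0.98 ± 0.09, from 11.80, 11.88, 11.75 and 11.83 to 12.86, 12.71, 12.67 and 12.92 (limma adjusted p = 1.1e-07). HEMB1 (AT1G69740), an early enzyme of the path, rose by 0.28 ± 0.05. CHLM (AT4G25080), the methyltransferase of its magnesium branch, fell by 0.73 ± 0.09.

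**Figure D4:**
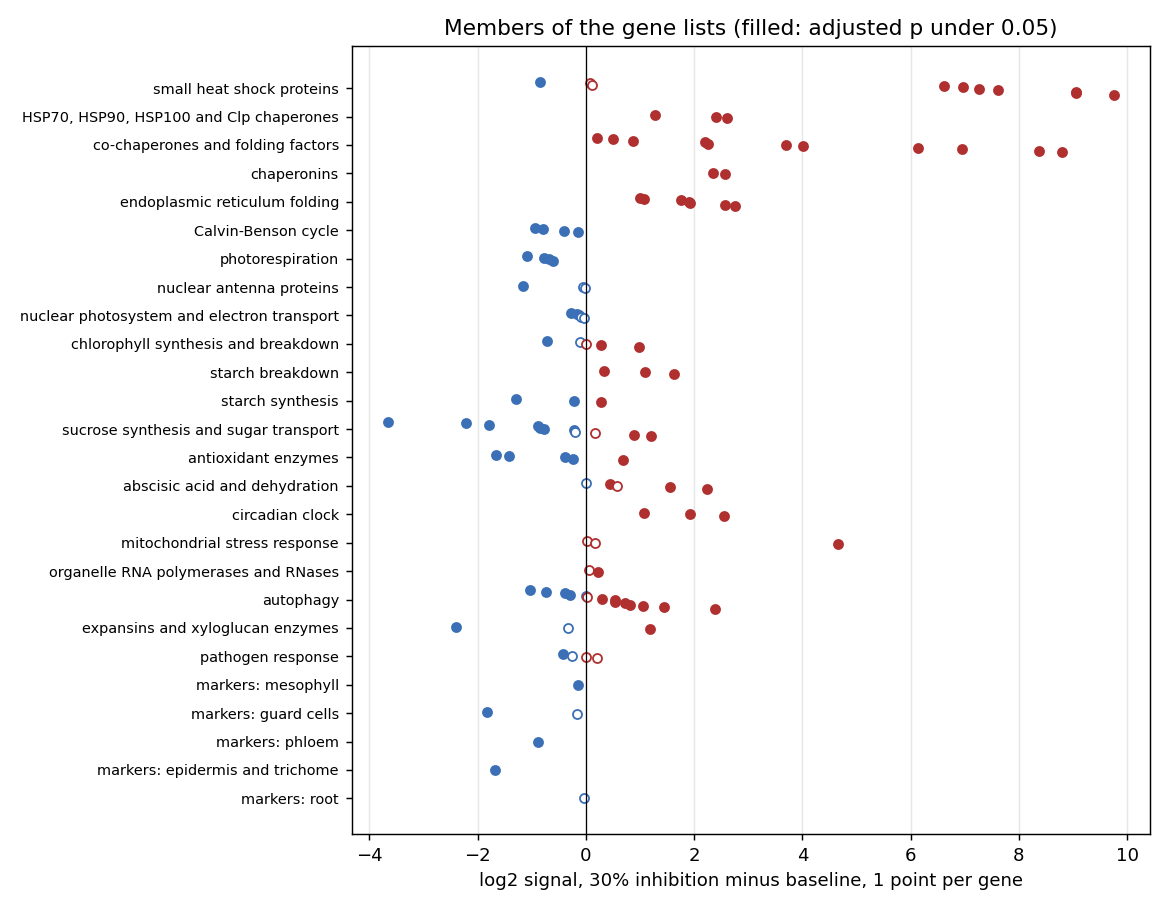
Change in log2 signal from baseline to 30% inhibition (horizontal axis) for every measured gene of the lists (1 point per gene; red above 0, blue below 0; filled where the test was passed). The chaperone lists lie to the right up to 9.76, apart from AT5G54660 at -0.84 and 2 small heat shock proteins near 0, and the carbon fixation and photorespiration lists to the left of 0.

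All 3 measured genes of starch breakdown rose. PWD (AT5G26570), which phosphorylates the starch surface so that amylases can act, read 8.84, 8.80, 8.85 and 8.83 at baseline and 10.46, 10.36, 10.39 and 10.59 at 30% inhibition (1.62 ± 0.06; limma adjusted p = 9e-13). DPE1 (AT5G64860), which recycles small maltodextrins, rose by 1.09 ± 0.07, and AMY1 (AT4G25000) by 0.33 ± 0.09 from a dim 4.79 ± 0.07 (SD). In starch synthesis APL3 (AT4G39210), a regulatory subunit of ADP-glucose pyrophosphorylase, fell by 1.29 ± 0.10. APL4 (AT2G21590), of the same kind, fell by 0.21 ± 0.08, and the branching enzyme SBE2.2 (AT5G03650) rose by 0.29 ± 0.08. The APL4 call ended without any of several single arrays, for example baseline replicate 1 (-0.17, limma adjusted p = 0.12). With the 25S signal as a covariate the calls of AMY1 and SBE2.2 ended (0.22 and 0.26, limma adjusted p = 0.18 and 0.061).

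Sucrose synthesis held the third largest fall of any assigned gene. ATSPS4F (AT4G10120), a sucrose-phosphate synthase, read 10.29, 10.19, 9.79 and 10.12 at baseline and 6.91, 6.18, 6.04 and 6.64 at 30% inhibition. It fell by 3.66 ± 0.17 (12.6-fold; limma adjusted p = 1.4e-11), with every array at 30% inhibition far below every baseline array. In the list of sucrose synthesis and sugar transport 7 of 11 measured genes fell, 2 rose and 2 were not called. Most of them are SWEET transporters, which let sugars pass membranes. SWEET2 (AT3G14770), a vacuolar glucose transporter, fell from 8.40, 8.33, 8.19 and 8.29 to 5.98, 6.10, 6.03 and 6.25 (-2.22 ± 0.13; adjusted p = 4.3e-10). SWEET13 (AT5G50800) and SWEET11 (AT3G48740), sucrose exporters, fell by 1.80 ± 0.12 and 0.88 ± 0.12. SWEET1 (AT1G21460) rose by 1.21 ± 0.07, and SWEET16 (AT3G16690), of the vacuole membrane, by 0.88 ± 0.17. Of the 14 genes whose symbol begins with SWEET, 4 fell, 2 rose and 8 were not called.

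The largest fall of an assigned gene was in AT2G27420, a papain-type cysteine proteinase. It read 9.63, 9.56, 9.19 and 9.06 at baseline and 5.505, 5.449, 5.369 and 5.410 at 30% inhibition (-3.93 ± 0.11, 15.2-fold; limma adjusted p = 3e-14). AT5G59670, a receptor-like kinase with leucine-rich repeats, gave 7.98, 8.18, 7.46 and 7.65 against 4.08, 4.16, 4.12 and 4.21 (-3.68 ± 0.15, 12.8-fold), with the endpoint near the dim end of the scale. For neither gene did the states come near each other on any array. Of the other large falls, several are in genes of known families. AT1G73600, a methyltransferase of phosphocholine synthesis, fell by 2.86 ± 0.08 from 11.97 ± 0.12 (SD). AT3G62950, a glutaredoxin, fell by 2.84 ± 0.37 from 6.78 ± 0.23 to 3.94 ± 0.16, and AT2G41090, a calmodulin-like protein, by 2.71 ± 0.09 from 13.22 ± 0.16. The lipase AT4G28780 of the GDSL family and the lectin AT5G03350 each fell by 2.69, the lipid transfer protein AT5G55450 by 2.68 ± 0.26, and AT3G22060, a secreted cysteine-rich protein, changed by -2.62 ± 0.20.

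Only 5 of the 26 genes on the list of antioxidant enzymes were measured, and of these 4 fell and 1 rose. The glutathione reductases, which keep glutathione reduced, had the largest changes. GR1 (AT3G24170) read 10.35, 10.35, 10.28 and 10.33 at baseline and 8.65, 8.79, 8.86 and 8.40 at 30% inhibition (-1.65 ± 0.08; limma adjusted p = 4.1e-11), and GR (AT3G54660), its organellar counterpart, fell by 1.43 ± 0.09. The chloroplast ascorbate peroxidases SAPX (AT4G08390) and TAPX (AT1G77490) fell by 0.39 ± 0.13 and 0.24 ± 0.08. The SAPX call ended without baseline replicate 1 (-0.34, adjusted p = 0.06), and that of TAPX without baseline replicate 2, for example (-0.22, adjusted p = 0.057). ATMDAR2 (AT5G03630), which restores ascorbate, rose by 0.68 ± 0.11.

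Of the genes that mark stress in the mitochondrion, AT2G21640, an oxidative stress marker, read 5.91, 5.71, 5.91 and 5.80 at baseline and 10.38, 10.62, 10.51 and 10.48 at 30% inhibition (25.4-fold, a rise of 4.66 ± 0.13; limma adjusted p = 1.8e-14). The alternative NAD(P)H dehydrogenases NDB2 (AT4G05020) and NDB4 (AT2G20800) were not called (0.02 ± 0.12 and 0.16 ± 0.09). A nuclear gene for a small subunit of complex III, AT5G25450, was among the largest rises of assigned genes, with 6.20, 5.84, 5.84 and 6.21 at baseline and 12.71, 12.73, 12.83 and 12.70 at 30% inhibition (105-fold; 6.72 ± 0.11). Of the enzymes that make or process organelle RNA, AT5G15700, an organelle RNA polymerase, gave 0.05 ± 0.07, and AT5G14580, a mitochondrial polynucleotide phosphorylase, 0.22 ± 0.08. The latter passed the test but lost its call without the array of baseline replicate 4, for example (0.18, adjusted p = 0.089). The family named OTP, which edit or splice organelle transcripts, had 5 of 8 genes lower (62.5%, against 22.1% of all genes) and none higher. OTP81 (AT2G29760) and OTP70 (AT4G25270) were down by 0.68 ± 0.10 and 0.41 ± 0.07. The call of OTP43, also lower, ended in several fits, for example without baseline replicate 3 (-0.19, limma adjusted p = 0.13).

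Of 5 measured genes of the abscisic acid and dehydration list 3 rose and 2 were not called. COR47 (AT1G20440), a dehydrin, read 9.88, 9.93, 10.09 and 9.88 at baseline and 12.40, 11.89, 12.39 and 12.07 at 30% inhibition (2.24 ± 0.12; limma adjusted p = 9.9e-11). COR15B (AT2G42530) and COR15A (AT2G42540), which protect chloroplast membranes, rose by 1.55 ± 0.10 and 0.44 ± 0.12, while LTI30 (AT3G50970) and AT3G15670 did not pass (0.58 ± 0.31 and -0.01 ± 0.08). The COR15A call ended with the 25S signal as a covariate (0.40, limma adjusted p = 0.072). Of the clock genes, all 3 measured ones rose. GI (AT1G22770), which peaks in the later part of the day in plants kept at constant temperature, read 8.09, 7.78, 7.98 and 7.98 and then 9.87, 9.88, 9.84 and 9.91 (1.92 ± 0.07). COR27 (AT5G42900), a repressor tied to the clock and to cold, rose by 2.55 ± 0.17, and AT4G33980, its close relative, by 1.08 ± 0.14. The part of the hour of sampling in these rises cannot be told apart from that of heat.

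Among cell wall genes EXPA8 (AT2G40610), an expansin that loosens walls, went from 11.14 ± 0.12 (SD) at baseline to 8.73 ± 0.22 at 30% inhibition without overlap (-2.41 ± 0.14; limma adjusted p = 5.2e-10). In the EXPA family 4 of 10 genes fell, 0 rose and 6 were not called, and EXPA16 (AT3G55500) fell by 1.24 ± 0.12. XTH16 (AT3G23730), a xyloglucan enzyme, rose by 1.18 ± 0.35, with overlapping groups and a baseline from 5.79 to 7.26, and XTH32 (AT2G36870) fell by 0.95 ± 0.09. Among 22 TBL genes, whose family acetylates wall polymers, 8 fell and 3 rose. The endoglucanase GH9C2 (AT1G64390) fell by 1.78 ± 0.15. The IQD family, calmodulin-binding scaffolds, had 8 of 15 genes lower and none higher, with the largest fall in iqd21 (AT3G49260), from 9.12 ± 0.10 to 7.86 ± 0.10 (SD).

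Enzyme families were mixed. Of 47 glycosyltransferases named UGT 11 fell (23.4%) and 7 rose (14.9%), near the 22.1% and 18.5% of all genes. The changes ran from UGT74D1 (AT2G31750), which glucosylates auxins, at -1.66 ± 0.09 to UGT85A5 (AT1G22370) at 1.46 ± 0.12. Of 29 SCPL genes, relatives of serine carboxypeptidases, 10 fell and 4 rose, SCPL49 (AT3G10410) by 1.72 ± 0.07. Cytochromes P450 with such names had 7 of 23 lower and 2 higher. The calls of the 2 that rose, CYP71B26 and CYP71B37, were lost without baseline replicate 2, for example (0.27 and 0.16, limma adjusted p = 0.069 and 0.065). The auxin-conjugating GH3.3 (AT2G23170) rose by 2.81 ± 0.19 from 5.61 ± 0.41 (SD) and the tetraspanin TET2 (AT2G19580) by 2.43 ± 0.12. Aldehyde dehydrogenases, 8 genes named ALDH, were all called, 4 in each direction, with ALDH2C4 (AT3G24503), an enzyme of sinapate and ferulate synthesis, down by 1.30 ± 0.07.

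From 20% to 30% inhibition, the last step of the curve, 953 probe sets rose (4.19%) and 676 fell (2.97%) in limma, and 1629 were called in all (7.16%). These counts depend on the setting: with arrays centred on their medians 755 rose and 872 fell, and with arrays centred on nuclear genes 810 and 767. Without the array of replicate 2 at 30% inhibition 441 fell, and with the 8 arrays of these states alone 544 rose and 371 fell. Per gene 3.86% rose and 2.53% fell, 6.39% in all. AT1G07050, a CCT-domain protein, read 5.28, 5.69, 4.95 and 5.21 at 20% inhibition and 7.52, 7.63, 7.53 and 8.27 at 30% inhibition (2.46 ± 0.17 between these states, adjusted p = 2.4e-07), against 4.14 to 4.43 at baseline. COR27 rose by a further 1.51 ± 0.17 in that step. AT1G04770 dipped and returned: it read 7.88 to 8.27 at baseline, 6.35 to 7.08 at 20% inhibition and 7.917 to 8.996 at 30% inhibition, and its difference between the ends of the curve was not called (0.33 ± 0.24). P1R1 (AT5G57780) rose by 1.56 ± 0.12 in the step and its change against the baseline was still -0.77. The pseudogene AT5G28430, measured by a probe set that matches several sequences, was at 3.95 to 4.00 at 20% inhibition and at 5.01 to 6.08 at 30% inhibition.

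Others passed their peak before the endpoint. AT5G35320 read 12.20, 12.08, 11.80 and 12.11 at 20% inhibition and 10.49, 10.60, 10.70 and 10.41 at 30% inhibition (-1.50 ± 0.11; limma adjusted p = 8.3e-07), both far above its baseline of 6.24 to 6.49. The RING finger genes AT5G47610 and AT1G14200, of a class that tags proteins with ubiquitin, fell by 1.72 ± 0.21 and 1.74 ± 0.11 in that step. AT4G27657 and AT4G27652 fell by 1.89 ± 0.23 and 1.74 ± 0.21 and ended 0.74 and 0.55 above the baseline, with groups that overlap it. The call of AT4G27657 against the baseline was lost without the array of replicate 4 at 30% inhibition (0.55, adjusted p = 0.051), and that of AT4G27652 without that of baseline replicate 2, for example (0.34, adjusted p = 0.17).

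**Figure D5:**
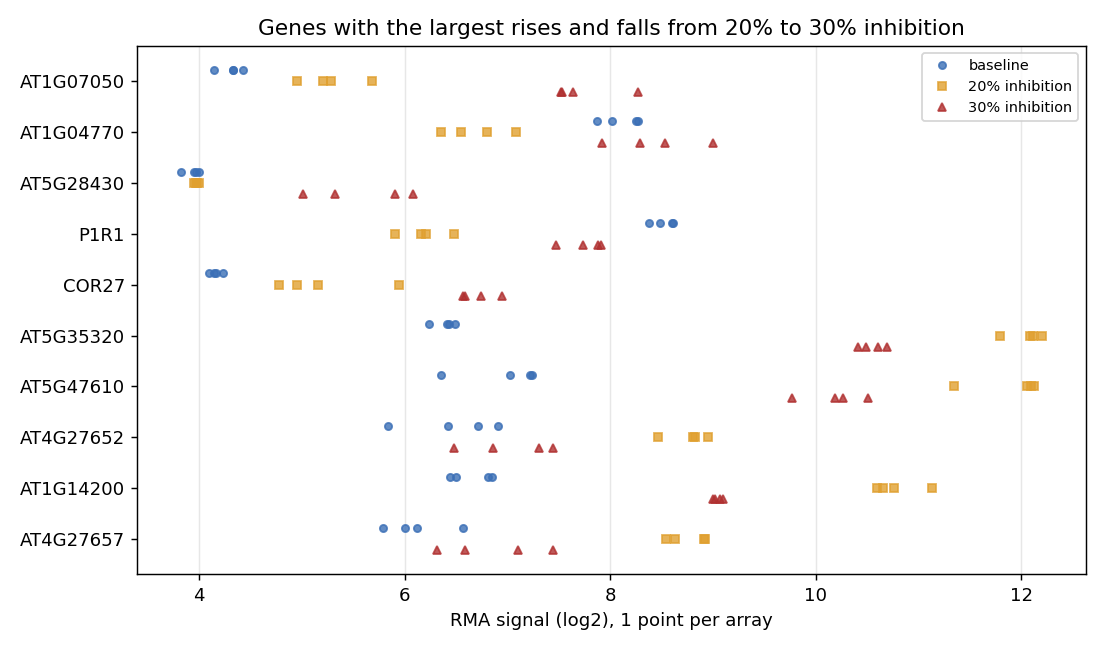
RMA signal (log2, horizontal axis) on each baseline array (circles), each array at 20% inhibition (squares) and each array at 30% inhibition (triangles) for the 5 genes that rose most and the 5 that fell most from 20% to 30% inhibition. AT1G07050 steps up at each state, whereas AT4G27652 and AT4G27657 lie near their baseline again at 30% inhibition.

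In the chaperone lists 0 genes rose in the last step. Over all genes 3.86% rose and 2.53% fell in that step, so few rises could be looked for in lists this short. Some members were already near the top of the scale at 20% inhibition, such as AT1G53540 (mean 13.94) and AT5G48570 (13.86). A further rise in such genes could hardly be measured. Of 10 small heat shock proteins 2 fell, AT5G37670 by 0.67 and AT1G52560 by 0.62. Of 11 co-chaperones 4 fell, among them AT2G20560 (-0.69 ± 0.12) and Fes1A (-0.58 ± 0.14). Of the 3 genes of the HSP70 list 1 fell, AT3G09440 (-0.37 ± 0.09), and of the chaperonins 0. Of 7 measured genes on the endoplasmic reticulum list 2 fell, DER1 (-0.77 ± 0.13) and BZIP28 (-0.22 ± 0.06). In the mitochondrial genome 5 of 16 genes rose further and 0 fell: nad6 by 0.59 ± 0.10, nad4L by 0.41 ± 0.11, nad5 by 0.46 ± 0.13, cox2 by 0.61 ± 0.07 and matR by 0.56 ± 0.11. AT2G21640 rose by a further 0.96 ± 0.13. None of the 69 chloroplast-encoded genes was called in that step.

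The leaf identity was checked through marker lists, of which few genes had an assigned probe set. RCA, a marker of mesophyll, was bright on all 8 arrays, and the root marker EXPA7 (AT1G12560) stayed at 4.72 to 4.91 and was not called (-0.04 ± 0.06). Among markers of other leaf cells, AT1G22690, listed for guard cells, fell by 1.83 ± 0.18, from 9.46 ± 0.17 to 7.63 ± 0.40 (SD), while FMA (AT3G24140), which drives the last step of guard cell formation, was not called (-0.17 ± 0.09). SWEET11, which stands for phloem, fell as given above, and TRY (AT5G53200), a regulator of trichomes, fell by 1.67 ± 0.11. None of the markers listed for xylem had an assigned probe set. The part of the mix of cell types in the results was not tested. The pathogen response list had 1 of 4 genes lower, the immune receptor EFR (AT5G20480; -0.42 ± 0.08), and 3 not called.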

How the data were processed

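Total RNA from 100 mg of leaf tissue was treated with DNase, and 6 µg of it was made into biotin-labelled cRNA for Affymetrix ATH1 arrays, per the labels' protocols. The values are log2 signals deposited by the authors, made with RMA per the submitters' processing notes, which also name limma, with no version. RMA makes the distributions of the arrays alike, so a change is relative to the other probe sets. Intensities of single probes and detection calls were not used here, and the precision is limited by the number of arrays, 4 a state.

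The 64 control probe sets were set aside. The other 22746 were fitted in limma 3.58.1 (R 4.3.3) with a mean for each of the 4 states over all 16 arrays and 12 residual degrees of freedom, and tested 2-sided at 30% inhibition against baseline, with Benjamini-Hochberg adjustment over all of them and a threshold of 0.05. Probe sets were named through the platform annotation, updated through RefSeq gene tables: 13513 had 1 gene, 503 several and 8730 none, and a gene took its brightest probe set. In data simulated for this comparison with 22746 probe sets, 86% of 50 probe sets changed by 0.5 on the log2 scale were called, all 50 at each of 1, 2 and 4, and 6 unchanged ones. Far fewer probe sets were changed there than the 44.3% called in the leaves, so these figures are not error rates of the reported calls. Genes named are the 15 largest rises and falls, up to 3 each way per list and family of at least 8 genes, organelle genes, and 5 each way from 20% to 30% inhibition. The members and lists were chosen with earlier results of these data known. Array measures were compared by exact permutation over 70 assignments. Alternatives changed the variance prior, scaling, dim-probe filter, arrays, replicate block, covariate, threshold and probe set per gene. Figures were drawn in Python 3.11.15.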

Additional observations from a re-analysis of the deposited data

Results flagged for a closer look

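An array was looked for that stood far from the other 3 of its state, by Dixon's criterion at the 95% level. Of 356 groups of 4 arrays tested, 15 had one, where chance marks about 1 in 20 groups. At 30% inhibition the array of replicate 2 stood low for nad5 (8.60, the others 8.84 to 8.86), a nad1 probe set (7.78, the others 8.28 to 8.37) and Cpn60beta2 (13.57, the others 13.62 to 13.63). On the array of replicate 3 of that state SWEET13 was at 5.92 and psbZ at 11.91, both below the others, and AT1G54050 at 13.67, above them. Replicate 4 of that state was low for AT2G29500 (13.93) and high for AT1G07050 (8.27, the others 7.52 to 7.63). Replicate 1 of that state was high for TRY (6.55) and PSBW (13.19). At baseline, replicate 3 was low for rpl36 (12.52) and AT2G41090 (12.98), replicate 4 was high for PSAN (13.97), and replicate 2 was high for AT3G22060 (8.27) and low for the GAPDH difference between 3′ and 5′ probe sets (0.743).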

How the results depend on the processing

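The organelle results and the total counts at 30% inhibition against baseline kept within 1.5 times their values, apart from those given here. Requiring a 2-fold change left 909 probe sets higher and 939 lower (1848 in all), 1 chloroplast-encoded gene that fell and 0 that rose. The count of chloroplast-encoded genes that rose, 1, became 2 with an intensity-trended prior, 2 with the 8 arrays compared alone, 0 with the 25S covariate and 0 at an adjusted p under 0.01, and it ran from 0 to 4 when single arrays were left out. Leaving out single arrays gave 4001 to 4281 probe sets higher, 5300 to 5395 lower and 9301 to 9637 in all, 20 to 27 chloroplast-encoded genes that fell, and 14 to 15 mitochondrion-encoded genes that rose and 0 that fell. From 20% to 30% inhibition the counts ran from 691 to 1326 higher and from 441 to 827 lower, the 441 without replicate 2 at 30% inhibition. In that step an adjusted p under 0.01 left 424 higher and 304 lower, a 2-fold change 30 and 52, and the 8 arrays of the inhibited states alone 544 and 371. That last fit and those without single arrays at 20% inhibition, which gave the 691, 1326 and 827, were chosen after seeing the data. With replicate number as a fixed block 4315 probe sets were higher and 5586 lower, and as a random block 4330 and 5595. Arrays of the same number correlated in their deviations at 0.069, 0.009, 0.147 and 0.113, so the numbers were not taken as pairs. The 25S covariate left 3656 higher and 4648 lower. Over the named probe sets and all alternatives, 6368 values kept their side of the threshold, 362 lost the call and 45 gained one. No value of a called probe set changed sign (0), and 88 values of probe sets not called did. Where calls were lost, the cause was not tested. With 4 arrays a state, no detection calls and only 114 of 483 listed genes measured, small changes and dim genes are the least certain.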

Other observations

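Probe sets that could not be assigned to 1 gene also changed: 4589 of them were called at 30% inhibition against baseline in limma. Their largest rise was 9.69 on the log2 scale and their largest fall -4.87, which is a larger fall than in any assigned gene. Of these probe sets 6 rose by at least 8 on that scale. Among the 147 genes with several probe sets, all probe sets had the same call in 106, and in 1 gene they were called in opposite directions.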
